A study of Caenorhabditis elegans with 4 samples.

Results

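The genes described here handle iron and heme in the nematode Caenorhabditis elegans. They were taken by name, with earlier results of these data known, as the rows of the deposited count table whose WormBase identifier carries 1 of 9 gene names. These are the ferritin genes ftn-1 and ftn-2, the metal importer genes smf-1, smf-2 and smf-3, the heme genes hrg-1, hrg-4 and hrg-7, and the ferroportin homolog fpn-1.2. All 9 were found among the 20392 genes of the table. Total RNA was sequenced from whole first-stage (L1) larvae of 2 genotypes with 2 libraries each, wild type (strain GW1 / N2, Bristol) and lsm-8 mutant (strain GW1125, homozygous per the labels). The mutant allele, xe17, holds an insert that makes mCherry under the myo-2 promoter with the unc-54 3' UTR, a red mark of the pharynx,, and the strain keeps it over nT1[qIs51], a balancer that links chromosomes IV and V and makes the pharynx green. Larvae of both genotypes hatched for 16 hours in buffer without food, were sorted as non-green animals of L1 size and were then fed again for 2.5 hours. The mutant group is thus made of homozygous offspring of balanced mothers, and the labels do not state whether a group's libraries were grown apart, so p-values speak only of the spread between these libraries, which may be technical.

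Iron is stored inside ferritin shells, enters intestinal cells through divalent metal transporters of the NRAMP family and leaves cells through ferroportins. C. elegans cannot make heme and takes it up from its bacterial food through the intestine, so heme importers, a heme exporter and heme carriers move it from gut to other tissues. In this worm the transcription factor HIF-1 lowers the ferritin genes and raises smf-3 when iron is scarce, and the transcripts of hrg-1 and hrg-4 rise when heme is scarce. LSM-8, the product of the mutated gene, is the subunit particular to LSM2-8, a ring of proteins that acts in the nucleus on U6 and other RNAs, and the study asks what this ring and the exonuclease XRN-2 do in RNA decay.

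The libraries held between 50755251 and 101230177 counts, and depth was on average 1.83 times as high in the mutant. The targeted gene lsm-8 had wild-type levels of 15.4 and 15.9 CPM (a gene's share of the TMM-scaled library total, scaled up) and mutant levels of 3.25 and 3.73 CPM. A gene was called changed at an adjusted p under 0.05 in edgeR's quasi-likelihood test over all 16771 genes tested, and 28.2% of them were called, 13.5% higher and 14.8% lower in the mutant. Of all calls, 47.7% were higher with TMM scaling, against 60.5% when only library totals were used and 60.7% with the deposited log2 values. Markers of intestine, muscle, pharynx, neurons and epidermis were present in all libraries, but some members of these lists were close to absent. The intestine marker end-1 had 1 and 2 counts in wild type and 6 and 2 in the mutant. The epidermis marker rol-6 had 3 and 9 counts against 15 and 20, and dpy-7 had 20 and 29 against 48 and 33. Of 10 intestine markers tested, 4 were higher and 0 lower, and the summed level of the 11 markers in the table was 10380 and 10430 CPM in wild type and 11360 and 10850 CPM in the mutant. Of the markers tested, 4 of 8 were higher in body wall muscle, 4 of 6 in pharynx and 3 of 9 in neurons, with 0 lower in each. Epidermis had 3 of 8 higher and 1 lower, and germ line 1 of 7 higher and 1 lower. The muscle marker unc-54, called higher, shares its 3' UTR with the insert of the mutant. Whether reads of the insert were counted as unc-54 was not tested. The early germ cell marker nos-2 had at most 3 counts in every library. The part of tissue makeup in the results that follow was not tested.

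Of the 9 genes, 5 rose in the mutant, 2 fell and 2 were not called, beside the 28.2% called among all tested genes. All 3 heme genes rose, with hrg-4 at 3.02 times its wild-type level. The ferritin gene ftn-1 fell 2.54-fold. The metal importers split, with smf-3 higher and smf-1 lower, and the ferroportin homolog fpn-1.2 rose. Values of the genotypes did not overlap for 8 of the 9 genes, a pattern seen in 62.8% of tested genes. The median log2 fold change, mutant over wild type, was 0.52 over the 9 genes and -0.01 over all genes tested.

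**Figure D1:**
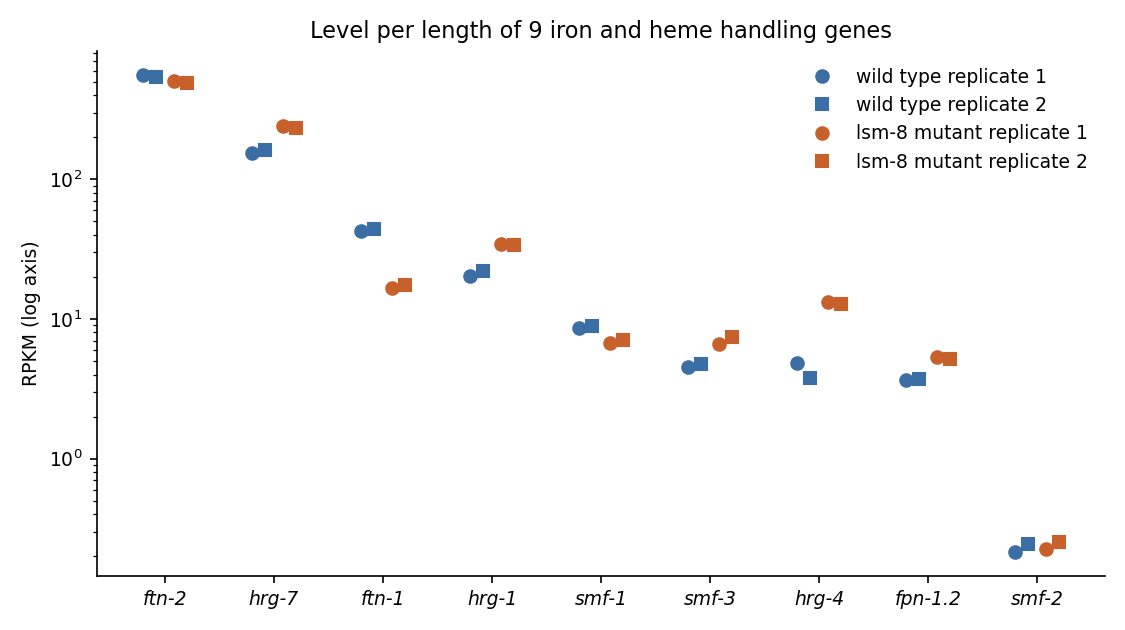
Level per length (RPKM, log axis) of the 9 genes in each library, with wild type in blue, lsm-8 mutant in orange, replicate 1 as circles and replicate 2 as squares. The order runs from ftn-2, near 500 RPKM, down to smf-2 at 0.215 to 0.254 RPKM, and the genotypes separate for every gene except smf-2.

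Levels per length were compared within a genotype as RPKM, the CPM divided by the deposited gene length in kilobases. In wild type the order from high to low was ftn-2 (552 ± 15.8 RPKM, mean ± SD, n = 2), hrg-7 (158 ± 6.25), ftn-1 (43.3 ± 0.708), hrg-1 (21.1 ± 1.23), smf-1 (8.76 ± 0.261), smf-3 (4.64 ± 0.199), hrg-4 (4.31 ± 0.752), fpn-1.2 (3.68 ± 0.0503) and smf-2 (0.229 ± 0.0199). The wild-type values of smf-3 and hrg-4 overlapped, while the other neighbours in this order did not. The gene ftn-2 lay above 99.0% of tested genes in wild-type RPKM, hrg-7 above 96.6% and ftn-1 above 86.6%, whereas smf-2 lay above 9.70%. In the mutant hrg-1 stood above ftn-1 and hrg-4 above smf-1 and smf-3, and smf-1 and smf-3 overlapped. Of all deposited gene lengths 49.5% are multiples of 3, so some gene models may lack UTRs, and levels per length then compare unlike parts of transcripts.

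The ferritin genes encode the subunits of the iron storage shell. Levels of ftn-1 (WBGene00001500, chromosome V, 3 exons), the ferritin expressed mainly in the intestine, were 28.1 and 28.8 CPM in wild type against 11.02 and 11.4 CPM in the mutant. Both mutant libraries thus lay far below both wild-type libraries, and replicates of a genotype were close to each other. On the log2 scale the change was -1.34 (SE 0.08, 2 libraries per genotype, adjusted p = 3.21e-10 in edgeR), lower than that of all but 1.03% of tested genes. In RNA from whole larvae, fewer cells of a type and less RNA per cell cannot be told apart; the intestine markers given above summed to more in both mutant libraries, mostly through asp-1 (6232 and 6261 CPM against 7033 and 6653 CPM), which was not called. Without asp-1 the other 10 summed to 4146 and 4166 CPM in wild type and 4326 and 4193 CPM in the mutant. The 4 intestine markers called higher were elt-2 (log2 fold change 1.56, SE 0.10), ges-1 (0.35, SE 0.08), pept-1 (0.34, SE 0.055) and nhx-2 (0.25, SE 0.06). Negative log2 fold changes were those of vha-6 (-0.10, SE 0.06), elt-7 (-0.25, SE 0.09) and act-5 (-0.03, SE 0.06), none of them called. Levels of ftn-2 (WBGene00001501, chromosome I), the more widely expressed and far more abundant ferritin gene, were 377 and 362 CPM in wild type and 341 and 328 CPM in the mutant. These values did not overlap, but the difference was small and not called (log2 fold change -0.14, SE 0.06, adjusted p = 0.0677, unadjusted p = 0.0207). With a correction for gene length the log2 fold change of ftn-2 was -0.05, and pairing replicate 1 of a genotype with replicate 2 of the other, a fit added after the data were seen, called it (adjusted p = 0.0192).

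Since ftn-1 and ftn-2 were counted in the same libraries, their ratio is free of scaling between libraries. Reads of ftn-1 came to 7.46% and 7.95% of those of ftn-2 in wild type and to 3.23% and 3.48% in the mutant. The mutant libraries held 28.7 to 31.0 reads of ftn-2 for each read of ftn-1, against 12.6 to 13.4 in wild type. The log2 ratio, mutant minus wild type, was -1.201 (exact permutation test, two-sided, p = 0.333, the smallest that 2 against 2 allows).

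The SMF proteins import divalent metals, and SMF-3 is the intestinal member with the main part in iron uptake. Levels of smf-3 (WBGene00004878, chromosome IV, up to 12 exons) were 9.63 and 10.2 CPM in wild type and 14.2 and 16.0 CPM in the mutant. Both mutant libraries lay above both wild-type libraries, and the log2 fold change was 0.60 (SE 0.09, adjusted p = 8.16e-05). Levels of smf-1 (WBGene00004876, chromosome X, up to 11 exons), a related importer, went the other way, from 15.8 and 16.5 CPM in wild type to 12.4 and 13.0 CPM in the mutant. The groups did not overlap, and smf-1 fell by 0.35 on the log2 scale (-0.35, SE 0.09, adjusted p = 0.0041). The third importer gene, smf-2 (WBGene00004877, chromosome X), was close to silent, with 16 and 17 reads in wild type and 32 and 33 reads in the deeper mutant libraries. Its levels of 0.300 and 0.340 CPM in wild type and 0.312 and 0.356 CPM in the mutant overlapped. Exact 95% Poisson intervals ran from 0.172 to 0.544 CPM over the wild-type libraries and from 0.213 to 0.499 CPM over the mutant libraries, which covers counting error only. No difference was detectable at this depth (log2 fold change 0.06, SE 0.41, adjusted p = 0.934). Exons of smf-2 overlap those of nas-11 on the opposite strand, which stood at 50.4 CPM in wild type. Whether counting used strand is not given in the sources used here, and without it antisense reads cannot be separated from those of smf-2. Reads of smf-3 came to 60.9% and 62.0% of those of smf-1 in wild type and to 115% and 123% in the mutant. The gene with more reads was thus smf-1 in wild type and smf-3 in the mutant (log2 ratio higher by 0.955, exact permutation test, two-sided, p = 0.333, the smallest that 2 against 2 allows).

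The hrg genes were named for their response to heme. HRG-4 imports heme across the intestinal plasma membrane, HRG-1 moves it out of endosomes and lysosomes, and HRG-7 is a secreted protein related to aspartic proteases that signals heme status between tissues. Levels of hrg-4 (WBGene00009493, chromosome IV, 3 exons) were 3.30 and 2.58 CPM in wild type and 8.98 and 8.81 CPM in the mutant. The wild-type libraries differed from each other more than the mutant libraries did, yet both stayed far below them. The log2 fold change was 1.59 (SE 0.13, adjusted p = 2.80e-08), higher than that of 99.2% of tested genes, and these values rest on 129 to 921 reads per library. Levels of hrg-1 (WBGene00019830, chromosome X) were 29.9 and 32.5 CPM in wild type and 50.8 and 50.03 CPM in the mutant. It rose 1.62-fold with no overlap between genotypes (log2 fold change 0.69, SE 0.07, adjusted p = 2.29e-07). Levels of hrg-7 (WBGene00007605, chromosome V), the most abundant of the 3, were 213 and 226 CPM in wild type and 337 and 325 CPM in the mutant. This rise of 1.51-fold (0.59 on the log2 scale, SE 0.06, adjusted p = 2.19e-07) was the largest gain in CPM among the 9 genes. Its exons overlap those of C15C8.7 on the opposite strand, whose mean level was 13.2 CPM in wild type against 10.8 CPM in the mutant.

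For each read of hrg-4 there were 9.06 and 12.6 reads of hrg-1 in the wild-type libraries and 5.66 and 5.68 in the mutant libraries. Reads of hrg-4 were thus more frequent relative to those of hrg-1 in both mutant libraries (log2 ratio higher by 0.915, exact permutation test, two-sided, p = 0.333, the smallest that 2 against 2 allows). This difference was 0.68 without wild type replicate 2 and 1.15 without wild type replicate 1.

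**Figure D2:**
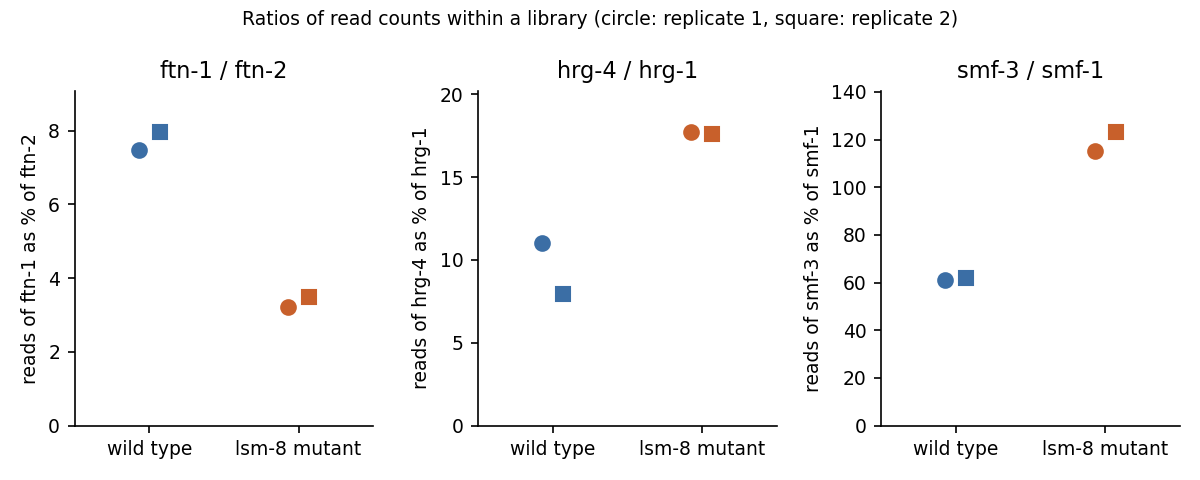
Reads of ftn-1 as a percent of ftn-2, of hrg-4 as a percent of hrg-1 and of smf-3 as a percent of smf-1 within each library (circles for replicate 1, squares for replicate 2; wild type blue, lsm-8 mutant orange; axes start at 0). The ferritin ratio is lower in the mutant and the other ratios are higher, with no overlap between genotypes.

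Ferroportins are the known exporters of iron from animal cells. Levels of the homolog fpn-1.2 (WBGene00019977, chromosome V, 6 exons) were 6.21 and 6.33 CPM in wild type and 9.17 and 8.82 CPM in the mutant. The genotypes did not overlap, and the rise was 1.43-fold (log2 fold change 0.52, SE 0.11, adjusted p = 0.000956). Its paralog fpn-1.1 moved the other way, from 11.5 and 11.7 CPM to 8.11 and 8.91 CPM (-0.44 on the log2 scale, SE 0.10, adjusted p = 0.00192). The level per length of fpn-1.1 was thus above that of fpn-1.2 in wild type (6.82 against 3.68 RPKM) and close to it in the mutant (5.01 against 5.27 RPKM).

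**Figure D3:**
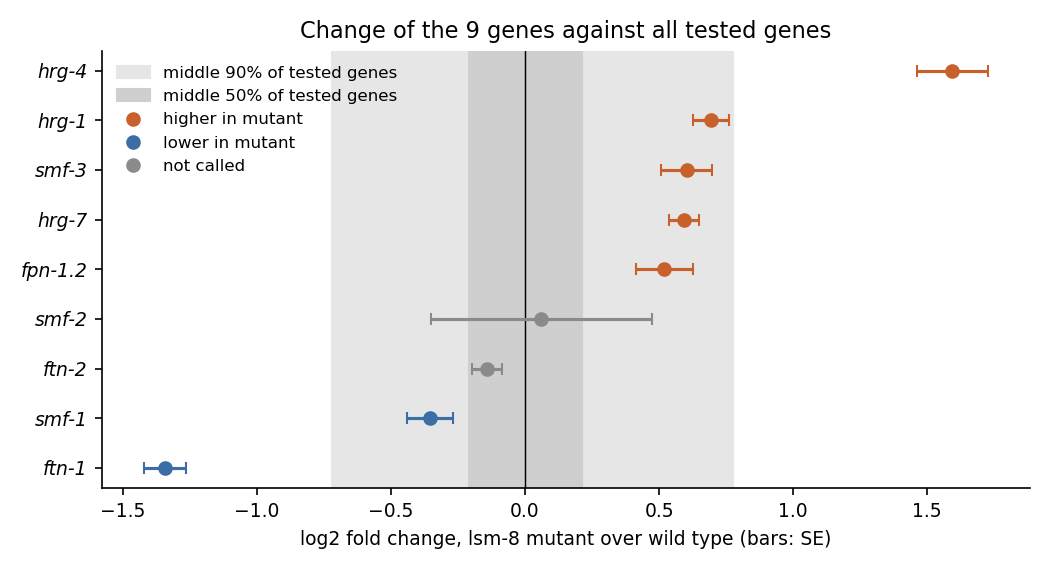
Log2 fold change of each of the 9 genes, mutant over wild type, with bars of 1 SE (edgeR, 2 libraries per genotype); orange genes were called higher, blue lower, and grey ones were not called. Dark and light bands hold the middle 50% (-0.21 to 0.21) and the middle 90% (-0.72 to 0.77) of all tested genes, and only hrg-4 and ftn-1 among the 9 lie outside the light band.

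Other genes that carry heme were measured beside these. Of 7 further heme trafficking genes, 3 rose, 0 fell and 4 were not called, beside 28.2% called among all tested genes, with a median log2 fold change of 0.22. The gene hrg-3, whose product delivers heme from the mother's gut to embryos, had only 32 and 14 reads in wild type and 262 and 202 in the mutant, or 0.601 and 0.280 CPM against 2.55 and 2.18 CPM. It rose by 2.41 on the log2 scale (SE 0.27, adjusted p = 1.49e-06), from 1.97 to 3.07 over the alternatives. Its exons overlap those of F58E6.11 on the opposite strand, which did not pass the test (log2 fold change -0.09, SE 0.13). The genes hrg-5 and hrg-6, paralogs of hrg-4, lie on either side of it on chromosome IV. Levels of hrg-6 rose from 0.901 and 1.12 CPM to 1.86 and 1.92 CPM (log2 fold change 0.91, SE 0.21, adjusted p = 0.00281), whereas hrg-5 had 10 to 35 reads per library and was not called (0.54, SE 0.44). Reads that match more than 1 of these paralogs, or more than 1 of the smf genes, could have been shared out among them, which the tables do not show. The intestinal heme exporter gene mrp-5 rose from 250 and 243 CPM to 285 and 290 CPM (0.22, SE 0.05, adjusted p = 0.00469), a call lost once gene length was corrected for (adjusted p = 0.0801) and without wild type replicate 2 (0.0587). The genes hrg-9 (-0.36, SE 0.13) and hrg-10 (-0.14, SE 0.14), linked to the release of heme from its stores, and hrg-2 of the epidermis (0.21, SE 0.16) were not called.

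Of 17 regulators of iron and heme genes, 5 were higher, 5 lower and 7 not called, beside the same 28.2%, with a median log2 fold change of 0.02. The gene rhy-1, which encodes a membrane protein that restrains HIF-1, stood at 3.21 and 3.56 CPM in wild type and 8.68 and 11.7 CPM in the mutant (1.59, SE 0.15, adjusted p = 2.67e-07). Exons of rhy-1 overlap those of W07A12.8 on the opposite strand, which was not called (0.20, SE 0.20). The gene elt-2, which encodes the intestinal GATA factor that binds the ftn-1 promoter, rose from 5.65 and 6.69 CPM to 18.3 and 18.03 CPM (1.56, SE 0.10, adjusted p = 1.05e-09), and it is also among the intestine markers. The insulin pathway transcription factor gene daf-16 (0.69, SE 0.07), the MAD-like repressor gene mdl-1 (0.30, SE 0.06) and the BMP pathway cofactor gene sma-9 (0.19, SE 0.06) also rose. The oxygen sensor gene egl-9, whose enzyme needs iron and marks HIF-1 for breakdown, fell (-0.41, SE 0.06, adjusted p = 3.75e-05). The genes cysl-1 (-0.35, SE 0.06), nhr-14 (-0.29, SE 0.08), mxl-3 (-0.24, SE 0.08) and aco-1 (-0.16, SE 0.06), the last an aconitase related to the iron regulatory proteins of mammals, were lower as well. Transcripts of hif-1 itself (0.12, SE 0.06, adjusted p = 0.148), vhl-1 and pqm-1 were not called. The call of sma-9 was lost in 3 of 16 alternatives and those of mxl-3 and aco-1 in 8 each (adjusted p up to 0.377, 0.338 and 0.236). That of nhr-14 was lost without wild type replicate 2 (log2 fold change -0.16, adjusted p = 0.169).

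Known targets of HIF-1 moved in both directions, with 2 of 6 higher and 4 lower, beside 28.2% called among all tested genes. Their median log2 fold change was -0.30, and rhy-1 and egl-9 are in this list too. The gene F22B5.4 fell from 10.6 and 9.93 CPM to 2.85 and 3.37 CPM (-1.73, SE 0.12, adjusted p = 3.77e-09) and nhr-57 from 17.1 and 16.1 CPM to 8.84 and 9.88 CPM (-0.83, SE 0.09, adjusted p = 1.45e-06). The latter shares exon sequence on the same strand with lgc-1, which was also lower (-0.77, SE 0.21). The prolyl hydroxylase gene phy-2 rose (0.53, SE 0.06), and cysl-2 was lower by a small amount (-0.19, SE 0.06), a call lost in 7 of 16 alternatives (adjusted p up to 0.207). Of 9 genes listed for mitochondrial iron and iron-sulfur clusters, 6 were found by name. Among these 6, 0 rose and 2 fell, a share called that is near the 28.2% of all tested genes, with a median of -0.17. The cluster scaffold gene iscu-1 fell from 52.3 to 38.5 CPM (-0.44, SE 0.06, adjusted p = 2.94e-05). The glutaredoxin gene glrx-5 was lower (-0.29, SE 0.08), a call lost once gene length was corrected for (adjusted p = 0.121) and without wild type replicate 1 (0.115). The frataxin gene frh-1 (-0.25, SE 0.13), the mitoferrin gene mfn-1, the cysteine desulfurase gene nfs-1 and the transporter gene abtm-1 were not called.

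**Figure D4:**
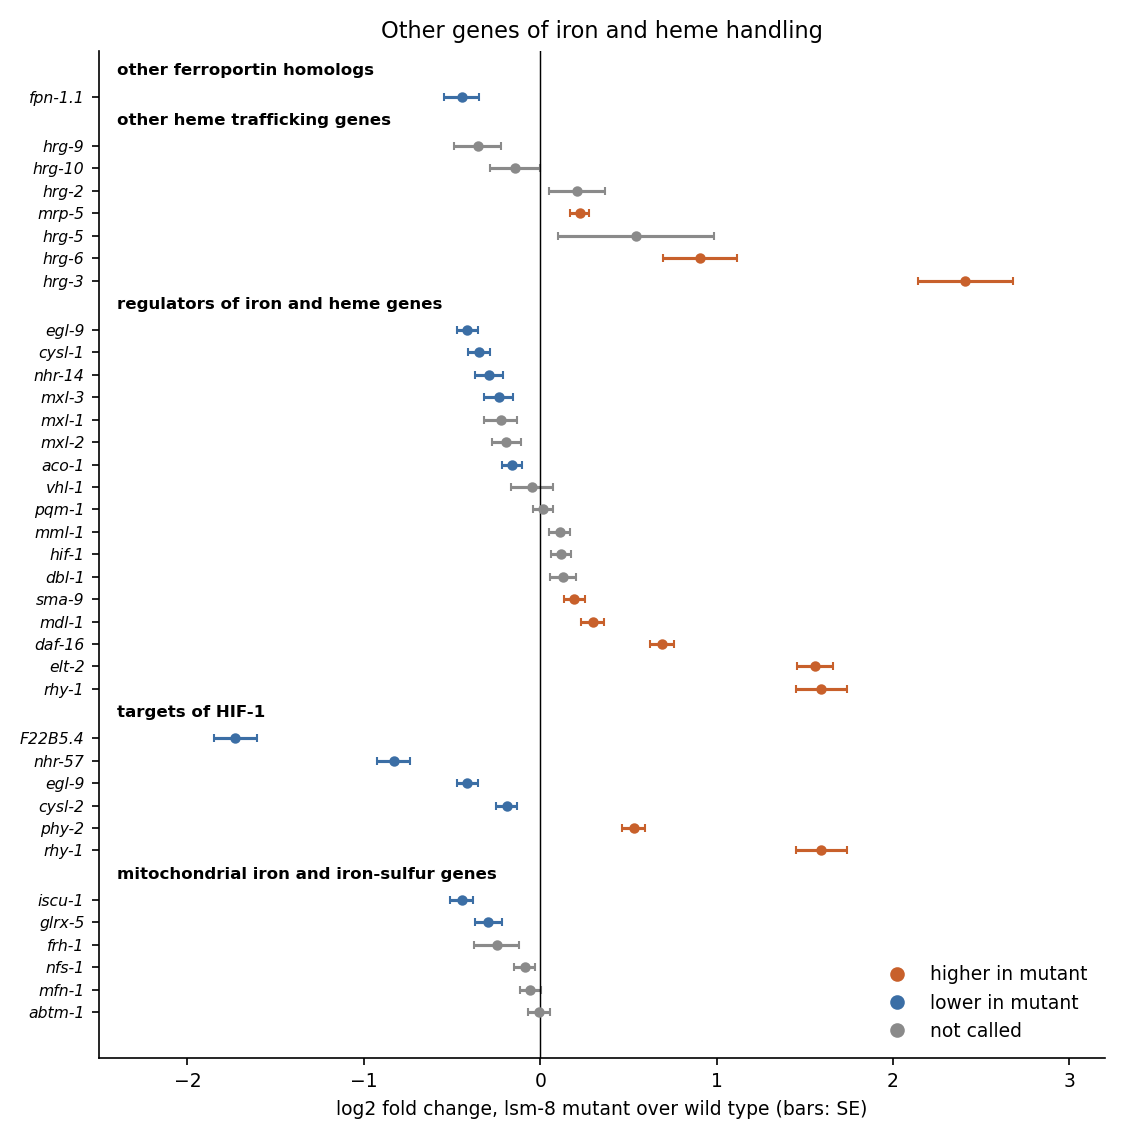
Log2 fold change, mutant over wild type, of other genes of iron and heme handling by list, with bars of 1 SE (edgeR; orange higher, blue lower, grey not called). The highest point is hrg-3 at 2.41 and the lowest is F22B5.4 at -1.73; egl-9 and rhy-1 appear in 2 lists.

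The 9 genes are spread over chromosomes I, IV, V and X. The allele lies on chromosome IV and the balancer joins IV and V. On chromosome IV, which holds hrg-4 and smf-3, 21.8% of 2658 tested genes were higher and 9.07% lower in the mutant (median log2 fold change 0.09), against 14.7% and 14.2% on chromosome V, which holds ftn-1, hrg-7 and fpn-1.2. The 20 tested genes nearest hrg-4, 10 on each side, had a median of 0.15, and the largest change among them was that of hrg-6 (0.91), so hrg-4 at 1.59 stood above all of them. Around smf-3 8 of 20 neighbours were higher and 1 lower, with a median of 0.17. The 0.60 of smf-3 stood above 19 of them, the highest called being egrh-3 (0.41), and below nhr-242 (0.94), which was not called. Around ftn-1 1 neighbour was higher and 2 were lower, with a median of -0.06. The -1.34 of ftn-1 stood below 19 of the 20 and above C54F6.5 (-1.71), which was called lower. The adjacent genes smf-1 and smf-2 lie in a stretch where 8 of the 20 neighbours of smf-1 were lower and 1 was higher (median -0.14). On the whole of chromosome X, 12.9% of 2343 tested genes were higher and 15.2% lower. Around fpn-1.2 6 neighbours were higher and 0 lower, and around hrg-7 0 were higher and 4 lower. The 0.52 of fpn-1.2 stood below 4 of its 20 neighbours, the highest being cnc-2 (1.71), which was called higher. The part of chromosome or position in the changes of these genes was not tested.

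**Figure D5:**
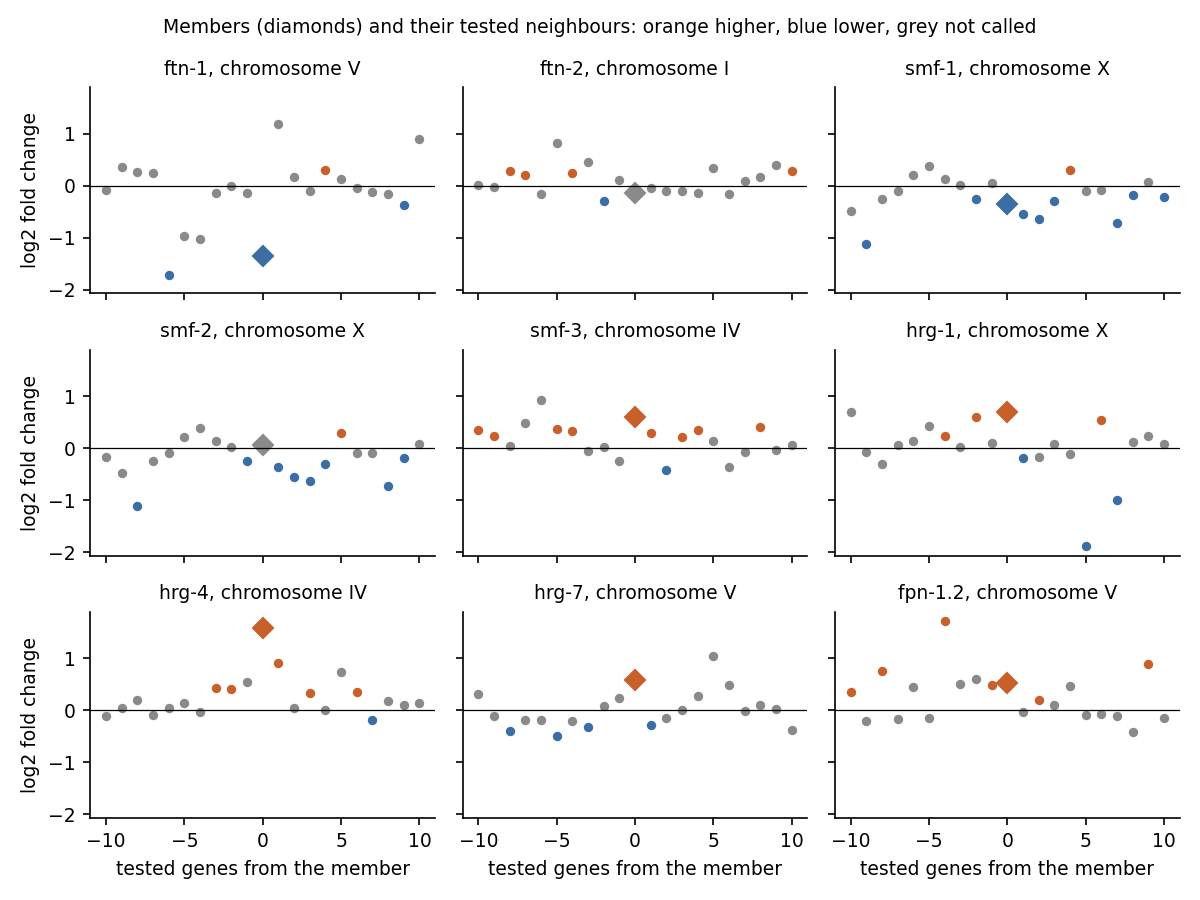
Log2 fold change, mutant over wild type, of each of the 9 genes (diamond) and of the 10 tested genes on each side in chromosome order (points; orange higher, blue lower, grey not called). The diamond of hrg-4 stands clear of all its 20 neighbours, that of hrg-1 (0.693) is level with its highest neighbour (0.691, not called), and that of smf-3 is above 19 of its 20.

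Over the 4 libraries, the genes whose centred log2 CPM lay closest to ftn-1 among 6370 genes with a locus name and at least 5 CPM were ugt-51 (Euclidean distance 0.06 on the log2 scale, log2 fold change -1.38), catp-3 (distance 0.07, -1.36) and acer-1 (distance 0.10, -1.25). Those closest to hrg-4 were ncx-7 (distance 0.09, log2 fold change 1.68), gst-38 (distance 0.17, 1.73) and aat-6 (distance 0.27, 1.56). With 4 libraries these distances largely measure the size of the change between genotypes and are given as a description.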

How the data were processed

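The authors deposited raw counts of reads per gene for 4 libraries, beside a length in bases for each gene. They also deposited log2 values, which equal the log2 of 8 plus the count scaled to the mean library total (largest difference 5.3e-14). Per the labels' protocols, libraries came from a stranded total RNA kit and were read as single ends of 50 bases. The submitters' processing notes name Bowtie, edgeR 3.24.0 and ce10 but no roles for them; for the counter, the annotation and the strand setting, nothing is given in the sources used here. Names and chromosomes came from tables of WBcel235, a different build, so no coordinate is given. By that annotation, further named genes also overlap exons of a gene on the opposite strand, among them cysl-2, daf-16, sma-9, glrx-5, aco-2, cyc-1, zipt-2.3 and hmt-1. Of 123 symbols in the lists, 119 were found. The ferroportin homolog fpn-1.3 and the mitochondrial genes lpd-8, isca-1 and isca-2 were not found by name.

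The main test was edgeR's quasi-likelihood F-test on the counts (edgeR 4.0.16, R 4.3.3; TMM, filterByExpr, robust dispersions, Benjamini-Hochberg over 16771 genes). SE is the log2 fold change over the square root of F. Alternatives were other scalings and filters, DESeq2 1.42.0, limma 3.58.1, a replicate block, a gene length correction and leaving out each library. A count of 0 allows up to 0.0296 to 0.0591 CPM (3 counts, here over library totals without TMM scaling). The test was tried on simulated data with known changes. It called 62.7% of 1.5-fold, 77.8% of 2-fold and 98.5% of 4-fold changes, with 1 false call. A gene that was not called may thus still have changed. Replicates differed by more than counting noise (chi-square over degrees of freedom 9.25 and 15.7). The 9 genes, the lists and the tests were chosen with earlier results of these data known. Named are all 9 genes, lsm-8, the called genes of the lists and the 3 genes most like ftn-1 and hrg-4; uncalled and overlapping genes are named for context.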

Additional observations from a re-analysis of the deposited data

How the results depend on the processing

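Over 16 alternatives, 7 of the 9 genes kept both direction and call in each one run, and the calls numbered 7 in all but 1 fit. The exception is the crossed pairing of replicate numbers, added after the data were seen, with 8 calls through ftn-2 (5652 genes called in all). With the replicate number as a block 3655 genes were called and the same 7 of the 9; the numbers are not shown to pair libraries (correlation of replicate differences between genotypes -0.04 over all tested genes and -0.11 over those of at least 5 CPM). The log2 fold change of smf-2 ran from -0.038 to 0.153 as single libraries were left out, and was not called in any alternative; smf-2 was not tested at 5 CPM in 2 libraries. Over all alternatives the log2 fold change ran from -1.373 to -1.247 for ftn-1 and from 1.423 to 1.786 for hrg-4. Leaving out single libraries, the log2 ratio differences ran from -1.255 to -1.146 (ftn-1 to ftn-2), from 0.676 to 1.153 (hrg-4 to hrg-1) and from 0.903 to 1.006 (smf-3 to smf-1). Of 32 other called genes followed, 23 kept their call throughout. The planned search of promoter windows was not run. Depth limits smf-2 and hrg-5, with 10 to 35 reads per library.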

Other observations

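Enzymes that hold iron or heme went in both directions. Of 14 tested, 2 were higher, 3 lower and 9 not called, beside 28.2% called among all tested genes, with a median log2 fold change of -0.02. The mitochondrial aconitase gene aco-2, whose enzyme holds an iron-sulfur cluster, fell from 1417 and 1401 CPM to 999 and 1007 CPM (-0.49, SE 0.06, edgeR adjusted p = 2.67e-06). The succinate dehydrogenase subunit gene sdhb-1 (-0.26, SE 0.06) and the cytochrome c1 gene cyc-1 (-0.20, SE 0.06) were lower, the latter a call lost in 7 of 16 alternatives (adjusted p up to 0.122). The cuticle peroxidase gene mlt-7 (0.37, SE 0.06) and phy-2 rose. The catalase gene ctl-2 was not called (0.06, SE 0.06), nor was ctl-3, with 25 to 36 reads per library. The third catalase gene, ctl-1, had 0 counts in every library. How reads that match more than 1 catalase gene were counted is not given, so 0 counts need not mean an absent transcript.

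Genes for other metals were split as well, with 3 of 11 higher, 4 lower and 4 not called, beside 28.2% called among all tested genes. Their median log2 fold change was -0.01. The metallothionein gene mtl-1, whose small cysteine-rich product binds metals, fell from 20.7 and 23.3 CPM to 9.12 and 8.02 CPM (-1.36, SE 0.09, adjusted p = 3.11e-09). Its paralog mtl-2 was not called (-0.77, SE 0.19, adjusted p = 0.056). The zinc transporter genes zipt-2.3 (1.13, SE 0.18), ttm-1 (0.47, SE 0.07) and cdf-1 (0.25, SE 0.06) rose and cdf-2 fell (-0.49, SE 0.10). The copper chaperone gene cuc-1 fell (-0.42, SE 0.08). The call of hmt-1 (-0.23, SE 0.06), an ABC transporter gene of heavy metal tolerance, was lost without lsm-8 mutant replicate 2 (adjusted p = 0.112).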
